A study of Mus musculus with 3 samples.

Results

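The suppressor of cytokine signalling (SOCS) family comprises 8 genes in the mouse, Cish and Socs1 to Socs7, and all 8 were taken by name from the 55200 genes measured. RNA came from 3 separate cultures of Ba/F3, a mouse haematopoietic line that depends on interleukin-3 (IL-3), all kept in RPMI with 10% fetal calf serum, penicillin-streptomycin and recombinant murine IL-3 at 0.2 ng/mL, at 37 °C and 5% CO2. No culture carried an engineered allele or a treatment according to the labels, and none was deprived of IL-3, so the 3 cultures form 1 group with no contrast between conditions. In the deposited table the culture 3 column, judged by its values, follows another row order than cultures 1 and 2 and was joined to them by gene. Each culture 3 value, and with it each order and spread between cultures, rests on that join. Calls of SOCS members that change without it are given, and for other named genes no such values are given. Polyadenylated RNA was sequenced in strand-marked libraries with 50-base reads, and the gene counts summed to between 32044889 and 37180883 reads per culture. The study itself is about neutrophils that kill tumour cells, and the SOCS genes describe the line in the presence of its growth factor.

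SOCS proteins are the classical feedback inhibitors of cytokine receptors. A cytokine brings receptor chains together, the bound Janus kinases (JAKs) phosphorylate the receptor and the STAT transcription factors, and STATs then switch on SOCS genes among their targets. Each SOCS protein has an SH2 domain that binds phosphotyrosine and a carboxy-terminal SOCS box that recruits elongins B and C with the scaffold Cullin 5, a ubiquitin ligase. Cish was first isolated as a gene that cytokines such as IL-3 and erythropoietin induce rapidly, and in haematopoietic cells it is a classical target of STAT5.

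Cish gave by far the most reads of the family, Socs1 the fewest, and each of the 8 members was expressed. In CPM (the reads of a gene scaled to a fixed total of gene reads in each culture) Cish averaged 391.3 ± 47.0 and Socs1 averaged 4.40 ± 0.851 (SD, n = 3 each). Detection, at least 1 CPM in every culture, was met by 8 of 8 members, beside 19.9% of all 55200 genes and 45.9% of the 21960 protein-coding genes. The median of the 8 members was 44.9 CPM, and the median of the 10991 detected genes was 39.7 CPM, so the read yield of the family as a whole lay near the middle of the expressed genes. In bulk RNA, fewer cells expressing a gene and less RNA per cell cannot be told apart.

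Sequence near the start sites is shown first, because STAT-responsive SOCS genes are known for repeated short STAT elements there. The RefSeq promoter table (GRCm38.p6, 250 bases before to 50 after each start) held entries for 4 members, Cish, Socs1, Socs3 and Socs4. Socs2, Socs5, Socs6 and Socs7 had no entry. The stretches below are written 5′ to 3′ on the strand of the gene. Capitals mark the letters TTCNNNGAA, the core to which STAT dimers are known to bind, in Cish and Socs3, and a pair of overlapping matches to GAAANNGAAA, the core of the interferon-stimulated element, in Socs1. They lie at chr9:107296654-107296683 on the plus strand for Cish, chr11:117969367-117969546 on the minus strand for Socs3 and chr16:10785537-10785656 on the minus strand for Socs1.
Cish: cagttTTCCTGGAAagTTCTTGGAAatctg
Socs3: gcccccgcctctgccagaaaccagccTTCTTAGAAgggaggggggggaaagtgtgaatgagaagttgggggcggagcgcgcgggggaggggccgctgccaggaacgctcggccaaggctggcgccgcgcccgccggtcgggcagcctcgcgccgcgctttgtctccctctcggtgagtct
Socs1: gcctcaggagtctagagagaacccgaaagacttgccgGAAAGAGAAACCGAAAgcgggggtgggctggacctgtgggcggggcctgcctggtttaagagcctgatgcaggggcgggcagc

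Counted from the RefSeq start, the Cish matches span bases 1 to 9 (TTCCTGGAA) and 12 to 20 (TTCTTGGAA). Another annotation places them elsewhere relative to transcription, since the principal Cish transcript of GENCODE M21 starts further upstream and both matches lie in its first exon, 633 and 644 bases from its start. The single Socs3 match (TTCTTAGAA) covers bases -154 to -146 from the RefSeq start. Counted from the start of the principal Socs3 transcript of GENCODE M21, it begins at base -334. The annotated Socs3 gene reaches further upstream, to 117970047, so the match at 117969512 to 117969520 lies inside the gene's span. TTCNNNGAA reads the same on both strands. It occurred in 2 of the 4 member promoters and in 2726 of all 32851 promoters (8.30%), and at least 2 copies, as in Cish, occurred in 150 promoters (0.457%). With a spacer of 4 bases it occurred in 0 of the 4 member windows, beside 6.95% of all, which says only that these letters are not in these windows.

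GAAANNGAAA, a motif chosen after the Socs1 sequence had been seen, was searched on both strands and occurred in 1131 promoters (3.44%). The Socs1 copies, GAAAGAGAAA and GAAACCGAAA, start 83 and 77 bases before the transcription start and overlap by a shared run of letters. The Socs4 window held neither motif. These matches are letters in a window, and no binding was measured.

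Cish (ENSMUSG00000032578, GRCm38 chromosome 9, 107296026 to 107302784, plus strand) encodes CIS, which binds phosphotyrosines of activated receptors and is known to compete with STAT5 for them. It measured 445.1, 357.9 and 371.0 CPM in cultures 1, 2 and 3, from 14263, 12124 and 13794 reads. Culture 1 was high, while cultures 2 and 3 lay close together; read on the row as deposited, culture 3 would be 427.0 CPM and nearer to culture 1. Its mean ranked 374th among the 10991 detected genes, at the 96.6th percentile. Cish held 61.4%, 56.3% and 56.6% of all SOCS reads in the 3 cultures, with Wilson 95% intervals of 60.8 to 62.0%, 55.6 to 56.9% and 56.0 to 57.2%, which cover counting error only. More than every other member combined, in each culture, came from this gene.

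Socs2 (ENSMUSG00000020027, chromosome 10, 95385362 to 95417180, minus strand), best known for restraining growth hormone signalling, measured 20.0, 19.6 and 18.4 CPM. The ratio of highest to lowest culture was 1.09. Socs3 (ENSMUSG00000053113, chromosome 11, 117966079 to 117970047, minus strand) inhibits JAKs directly through a kinase inhibitory region and restrains receptors of the gp130 group. It measured 21.8, 20.8 and 23.8 CPM, and culture 3 was the highest. Both genes lay below the median of detected genes, at the 31.4th percentile for Socs2 and the 34.3rd for Socs3.

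Socs1 (ENSMUSG00000038037, chromosome 16, 10782240 to 10785536, minus strand), which shares the kinase inhibitory region and is the main brake on interferon-gamma signalling, measured 4.12, 3.72 and 5.35 CPM from 132, 126 and 199 reads. Culture 3 was high and cultures 1 and 2 were low, with a ratio of 1.44 between highest and lowest. Read on the row as deposited, culture 3 would be 3.85 CPM, between the other cultures. The gene stood at the 11.3rd percentile of detected genes and was the member with the fewest reads behind its value. At a detection threshold of 5 CPM it was the member that dropped out, which left 7 of 8. The share of all genes at that threshold is not given here.

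Socs4 to Socs7 have longer amino-terminal parts and are linked mainly to receptor tyrosine kinases. Socs4 (ENSMUSG00000048379, chromosome 14, 47276931 to 47296102, plus strand), which is linked to turnover of the EGF receptor, measured 86.2, 81.8 and 82.9 CPM and gave the most reads after Cish. Socs5 (ENSMUSG00000037104, chromosome 17, 87107679 to 87137839, plus strand), linked to the EGF and IL-4 receptors, measured 61.3, 60.5 and 62.6 CPM. The ratio of highest to lowest culture was 1.05 for Socs4 and 1.04 for Socs5.

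Socs6 (ENSMUSG00000056153, chromosome 18, 88665224 to 88927481, minus strand) is known to bind the receptor KIT and measured 27.4, 30.6 and 30.4 CPM. Its lowest value was in culture 1, where Cish was highest. Socs7 (ENSMUSG00000038485, chromosome 11, 97362551 to 97398542, plus strand), which binds adaptor proteins such as NCK, measured 58.9, 61.1 and 61.0 CPM. Socs7 and Socs5 overlapped in CPM. Among the detected genes Socs4, Socs5 and Socs7 stood at the 72.8th, 63.2nd and 62.6th percentile and Socs6 at the 41.4th.

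**Figure D1:**
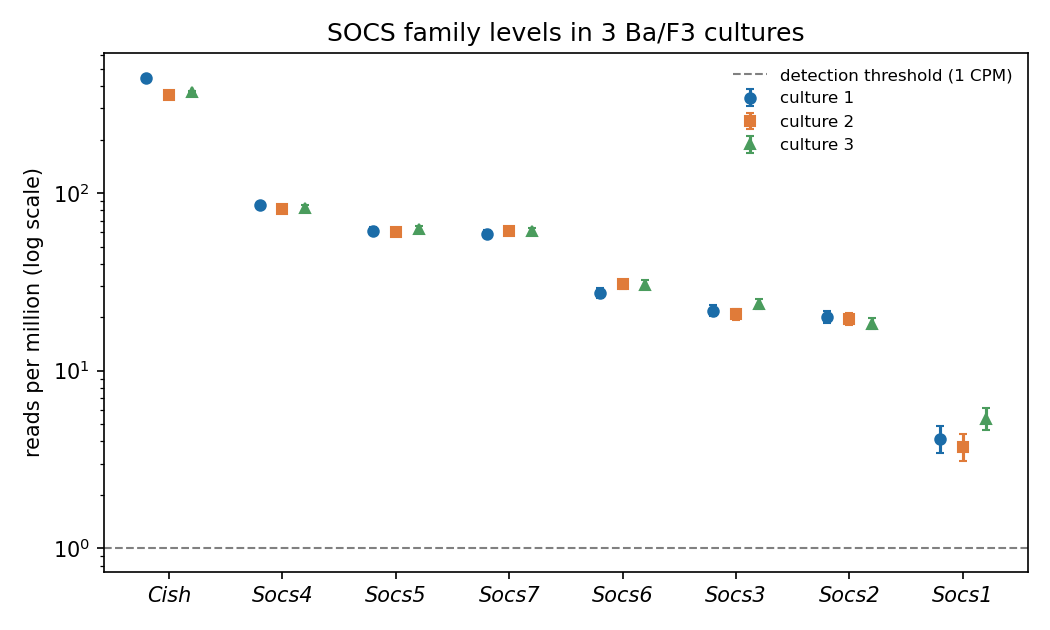
Level of each SOCS member in CPM (log scale) in the 3 Ba/F3 cultures, with 1 point per culture, exact Poisson 95% intervals as bars and the detection threshold of 1 CPM as a dashed line. Cish sits at 391.3 CPM on average, Socs4, Socs5 and Socs7 between 60.3 and 83.6, and Socs1 at 4.40.

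Levels of different genes compare only per length. RPKM values (CPM divided by exon length in kilobases, here over all exons of a gene merged) averaged 61.0 ± 7.33 for Cish, 12.2 ± 0.331 for Socs4, 9.58 ± 0.171 for Socs5 and 8.30 ± 0.168 for Socs7. Socs3 averaged 7.66 ± 0.532 RPKM, Socs6 2.60 ± 0.160, Socs2 2.03 ± 0.0870 and Socs1 1.51 ± 0.293 (SD, n = 3 each). On this scale Cish exceeded the next member 5.01-fold, and its lowest culture, at 55.7 RPKM, lay far above the highest Socs4 culture, at 12.5 RPKM. Socs7 and Socs3 overlapped between cultures, and the other neighbours in the order did not. Among detected genes the RPKM percentiles were 93.5 for Cish, 61.4 for Socs4, 45.7 for Socs3 and 10.5 for Socs1.

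Merged exons can dilute a gene whose annotation includes rarely used transcripts, and Socs2 carried 9531 merged exon bases against 2222 in its principal transcript. With principal transcript lengths, a choice made after the values were seen, Socs2 averaged 8.70 RPKM and overlapped Socs3, while Cish averaged 137.3 RPKM and stood 10.4-fold above Socs5, the next member on that scale. The order in the middle of the family therefore depends on the length used. First place for Cish and last place for Socs1 held for merged exons, longest transcripts, principal transcripts and plain CPM.

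**Figure D2:**
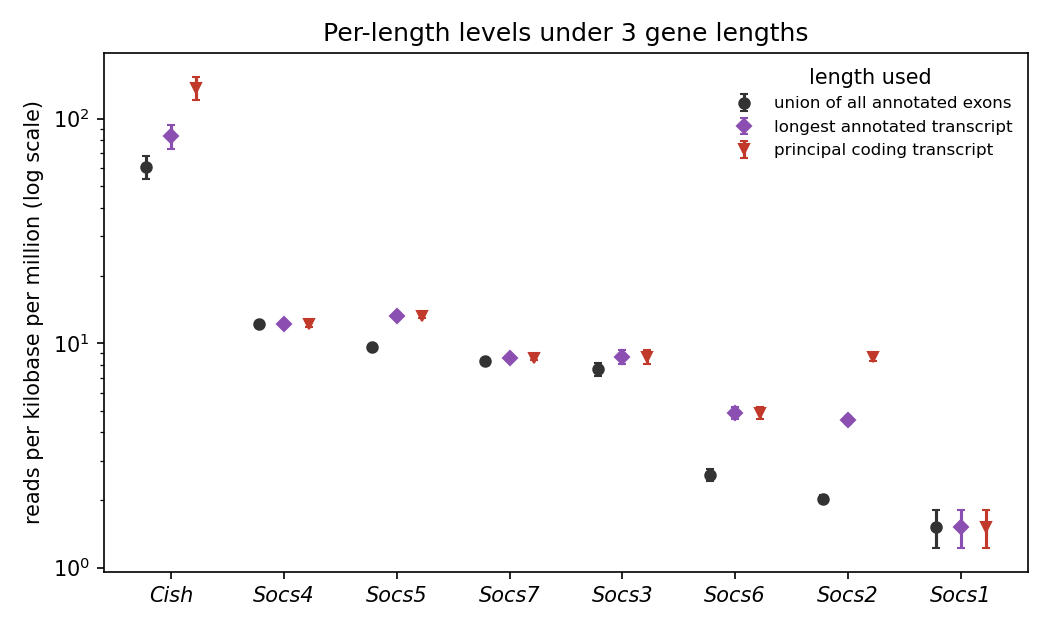
RPKM of each member (log scale) for 3 definitions of gene length, with points for the mean and bars for the SD over 3 cultures. Cish is highest and Socs1 lowest for each length, and Socs2 moves most, to 8.70 RPKM for the principal transcript.

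The short members Cish and Socs1 to Socs3, with 198 to 257 residues encoded, gave 64.9 ± 2.46% of the family's reads, and Socs4 to Socs7, with 436 to 579 residues, gave 35.1 ± 2.46% (SD, n = 3). Per length the shares were 68.8 ± 2.11% and 31.2 ± 2.11%. Most of the share of the short group was Cish, which alone gave 58.1 ± 2.88% of the family's reads. Between the extremes, Cish exceeded Socs1 49.0-fold, 43.6-fold and 31.4-fold per length in cultures 1, 2 and 3. The ratio was lowest in culture 3, where Socs1 was highest.

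Spread between cultures was set against counting noise with a chi-square test of Poisson heterogeneity over the 13140 genes that averaged 10 or more reads, with Benjamini-Hochberg adjustment over them. It compares these 3 libraries and not conditions. Of the 8 members 2 were called, Cish and Socs1, beside 32.8% of the genes tested, a share near that background. With trimmed mean of M values or median-of-ratios scaling the members called were 4, Socs3 and Socs6 being added, beside 34.3% of all genes under each. On the rows as deposited 2 were called, Cish and Socs5, beside 30.3% of all genes. The call depends on depth: among genes with at least 1000 reads on average 45.0% were called, and 1 of 5 members, Cish, while among genes with 100 to 1000 reads 28.0% were called, and 1 of 3 members, Socs1.

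For Cish the adjusted p of this chi-square test, fitted over all genes, was 8.2e-80. Culture 1 was 1.22-fold above the mean of the other cultures, and without culture 1 the adjusted p of the chi-square test was 0.0366. In Socs1, culture 3 was 1.37-fold above the mean of the others, and the chi-square test over all genes gave an adjusted p of 0.0116. Without culture 3 its adjusted p by the chi-square test was 0.649, and without culture 2 it was 0.0619. Cish thus kept its call when any culture was left out, and Socs1 lost it without culture 2 or culture 3. Socs1 also lost it on the rows as deposited (adjusted p = 0.824, chi-square test over all genes), where Socs5 gained it (adjusted p = 0.00018, chi-square test over all genes).

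Real cultures also vary biologically. A common dispersion fitted to 10126 genes with at least 100 reads gave a shared coefficient of variation of 7.07% beyond counting. That is above the median total coefficient of variation of these genes, 4.19%, so the test built on it is strict for a gene of median spread. Against that variance, by a chi-square test with negative binomial variance, 0 of 8 members were called, beside 3.65% of genes. The same test gave 1 member, Socs1, an unadjusted p under 0.05. The adjusted p by this chi-square test over all genes was 0.553 for Cish and 0.440 for Socs1. Neither gene passed this test after adjustment.

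**Figure D3:**
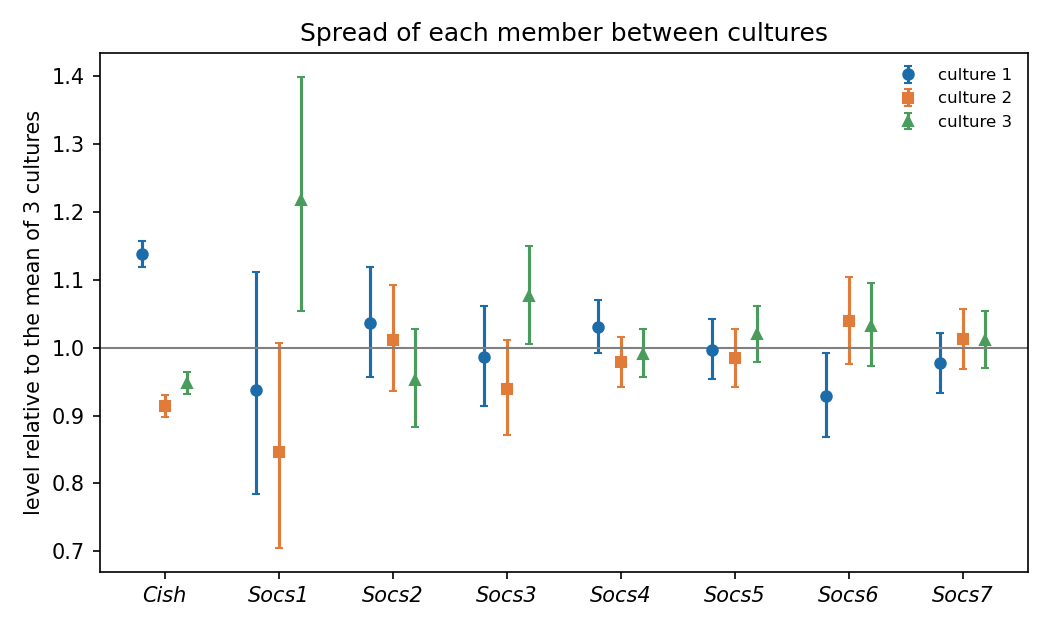
Level of each member in each culture relative to its mean over the 3 cultures (linear ratio, 1 = the mean), with exact Poisson 95% intervals as bars. Cish is high in culture 1 and Socs1 in culture 3, and the points of Socs5 and Socs7 lie closest to 1.

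In coefficients of variation, Socs1 reached 19.4% and Cish 12.0%, at the 95.6th and 88.4th percentile of genes with at least 100 reads, whose median was 4.19%. Counting alone accounts for 8.12% in Socs1 and 0.866% in Cish. Socs3 showed 6.94%, Socs6 6.17% and Socs2 4.29%. The others varied least, with 2.73% for Socs4, 2.03% for Socs7 and 1.78% for Socs5, and the last 2 were no larger than counting noise, which was 2.20% for Socs7 and 2.18% for Socs5. Members did not share a direction: Cish, Socs2 and Socs4 were highest in culture 1, Socs6 and Socs7 in culture 2, and Socs1, Socs3 and Socs5 in culture 3.

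**Figure D4:**
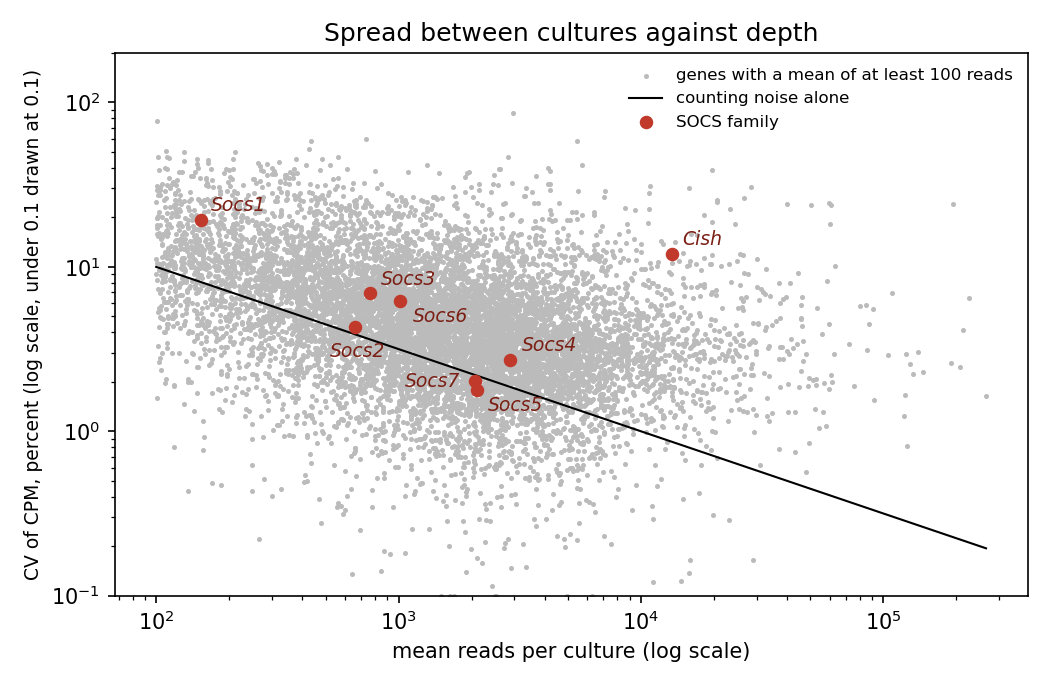
Coefficient of variation between cultures (percent) against mean reads, both on log scales, for genes averaging at least 100 reads (grey) and the SOCS members (red), with the line of counting noise alone. Socs1, at 19.4%, and Cish, at 12.0%, lie above the median of 4.19%, and Socs5 and Socs7 lie below it.

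Other features of the libraries differed between cultures too. Mitochondrial genes took 1.68%, 1.31% and 1.04% of reads in cultures 1, 2 and 3, and total gene reads were lowest in culture 1 and highest in culture 3. Wsb1, a SOCS box protein, measured 169.4, 102.9 and 99.5 CPM and, like Cish, was highest in culture 1. Id1, a STAT5 target in haematopoietic cells, measured 58.0, 55.7 and 77.8 CPM, and Il3ra, the alpha chain of the IL-3 receptor, 28.2, 27.3 and 38.7 CPM, both highest in culture 3 like Socs1. Id1 and Il3ra were picked out after their values were seen. The part of these differences in the SOCS values was not tested.

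The 3 genes with a pattern most like that of Cish, by Euclidean distance of log2(CPM + 1) over the 3 cultures among protein-coding genes, were Srsf1 (0.0653), Hnrnpl (0.135) and Ewsr1 (0.141). Srsf1, a splicing factor, measured 439.9, 372.5 and 364.5 CPM. With 3 cultures this likeness rests on 3 values a gene, and level counts for most of it. Cish is also the member with the highest level, so no further genes were sought.

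The list of ligase partners covers cullin ligases in general and not the Cullin 5 ligase alone, with Cul2 and Rbx1 beside Cul5 and Rnf7. Of its 12 measured genes 12 were detected, beside 45.9% of protein-coding genes, with a median of 73.0 CPM. The chi-square test was passed by 3 of the 12, against 32.8% of all genes. Ube2f and Arih2, picked out after their values were seen as relatives of Ube2m and Arih1, averaged 49.3 ± 1.17 and 70.1 ± 4.34 CPM (SD, n = 3 each). Cand1, which exchanges substrate receptors on cullins, averaged 249.9 ± 5.40 CPM, Arih1, a ligase that works with neddylated cullins, 196.9 ± 4.17, and Ube2m, a NEDD8-conjugating enzyme, 115.0 ± 4.44 (SD, n = 3 each). The core partners, chosen for display after their values were seen, averaged 38.4 ± 6.18 CPM for Elob, 61.4 ± 1.77 for Eloc, 81.1 ± 2.55 for Cul5 and 55.6 ± 1.68 for Rnf7. Elob, elongin B, measured 32.2, 38.3 and 44.6 CPM in cultures 1, 2 and 3, a spread that passed the chi-square test over all genes (adjusted p = 3.4e-14) but not the test with the common dispersion (adjusted p = 0.202, chi-square test over all genes).

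Per length, over merged exons, these partners can be set beside the inhibitors themselves. Cish averaged 61.0 RPKM, against 41.9 for Rnf7, 27.5 for Elob, 20.3 for Eloc and 9.93 for Cul5. Every other member lay below Elob and Eloc, and Socs4, at 12.2 RPKM, lay above Cul5. In CPM Socs4 and Cul5 averaged 83.6 and 81.1, so their order here rests on the merged exon length. The other orders in this comparison were read on that length alone. These are RNA levels and say nothing of protein amounts.

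Of 28 other genes with a SOCS box, 14 (50%) were detected, near the 45.9% of all protein-coding genes, with a median of 22.7 CPM, and 10 had no read in any culture. Of the 15 tested, 2 passed the Poisson chi-square test, beside 32.8% of all genes. The highest were Wsb1 at 123.9 ± 39.4 CPM, Asb1 at 56.8 ± 0.557 and Asb8 at 44.7 ± 1.44 (SD, n = 3 each), and Asb2, Asb4 and Asb5 were among those not detected. Wsb1 passed the test with the common dispersion (adjusted p = 6.8e-07, chi-square test over all genes).

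Upstream of the family, 10 of 11 Janus kinases and STATs were detected, beside 45.9% of protein-coding genes, with a median of 88.6 CPM. Of the 10 tested, 7 passed the Poisson chi-square test, beside 32.8% of all genes, and 0 the test with the common dispersion, beside 3.65%. Jak1 averaged 775.7 ± 17.4 CPM, Jak2, the kinase bound to the IL-3 receptor, 235.6 ± 8.82, and Stat3 191.8 ± 3.67. Stat4 was not detected, with a mean of 0.00897 CPM. Over merged exons, Cish stood at 61.0 RPKM, Jak1 at 107.3 and Jak2 at 46.8, an order that likewise rests on that length. Stat5a and Stat5b, the STATs of the IL-3 response, stood at 8.50 and 17.3 RPKM on the same scale and were picked out after their values were seen.

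Of 26 cytokine receptor chains 14 were detected, near the 45.9% of protein-coding genes, with a median of 34.1 CPM, and 6 had no read. Of the 16 tested, 4 passed the Poisson chi-square test, beside 32.8% of all genes, and 1, Il3ra, the test with the common dispersion, beside 3.65%. Csf2rb, the shared beta chain, averaged 721.2 ± 21.7 CPM, and Csf2rb2, its IL-3-specific counterpart, 675.3 ± 21.03. These are closely related copies between which reads can be misassigned. Il4ra averaged 110.4 ± 2.84 CPM. Il5ra did not exceed 0.0312 CPM in any culture, and Ghr, the growth hormone receptor on which Socs2 is known to act, had no read, which allows up to 0.0936, 0.0885 and 0.0807 CPM in cultures 1, 2 and 3 (3 reads, counting error only). Il6st, which encodes gp130, a classical target of Socs3, likewise had no read. It was picked out after its values were seen.

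STAT5 targets are the class to which Cish belongs. Of 16 measured genes of this list 13 were detected, beside 45.9% of protein-coding genes, with a median of 68.7 CPM. Of the 15 tested, 10 passed the Poisson chi-square test, beside 32.8% of all genes, and 1, Id1, the test with the common dispersion, beside 3.65%. Pim1, a survival kinase, averaged 1125 ± 72.0 CPM and was highest in culture 1, at 1204 CPM, against 1064 and 1106 in cultures 2 and 3. Ccnd2, a G1 cyclin, averaged 667.5 ± 20.4 CPM and Mcl1, an anti-apoptotic protein, 477.7 ± 13.8. Over merged exons, Pim1 stood at 334.6 RPKM, Mcl1 at 139.8, Ccnd2 at 70.9 and Cish at 61.0, and since Cish reached 137.3 RPKM on its principal transcript, a length not computed for the others, its place beside Ccnd2 and Mcl1 is not settled. Pim3 at 0.642 CPM, Ccnd1 at 0.350 CPM and Bcl6, without a read, were not detected. The list does not separate genes that STAT5 induces from genes that it represses, so an undetected entry is not a missing response.

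Of the other negative regulators of the pathway 15 of 16 were detected, beside 45.9% of protein-coding genes, with a median of 88.3 CPM. Of the 16 tested, 11 passed the Poisson chi-square test, beside 32.8% of all genes, and 0 the test with the common dispersion, beside 3.65%. Ptprc, the phosphatase CD45, averaged 437.4 ± 23.4 CPM, Cbl, a ubiquitin ligase for activated kinases, 237.1 ± 25.5, and Inpp5d, the lipid phosphatase SHIP1, 232.0 ± 3.61. Over merged exons, these stood at 23.9, 19.2 and 30.5 RPKM, beside 61.0 for Cish and 12.2 for Socs4, an order that likewise rests on that length. Usp18, a brake on interferon receptors, averaged 0.782 CPM and was not detected.

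Of 18 kinases and adaptors reported as SOCS partners 11 were detected, beside 45.9% of protein-coding genes, with a median of 71.5 CPM. Of the 11 tested, 3 passed the Poisson chi-square test, near the 32.8% of all genes. Igf1r averaged 949.2 ± 39.1 CPM, Grb2 222.3 ± 3.49 and Insr 128.4 ± 9.69. The receptors Egfr, Kit and Flt3 were not detected: Egfr had no read, and Kit and Flt3 averaged 0.0194 and 0.00984 CPM. Egfr is linked to Socs4 and Socs5 and Kit to Socs6, while Il4ra, also linked to Socs5, was detected. In all, 88 of 126 distinct genes over the 7 lists were detected.

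**Figure D5:**
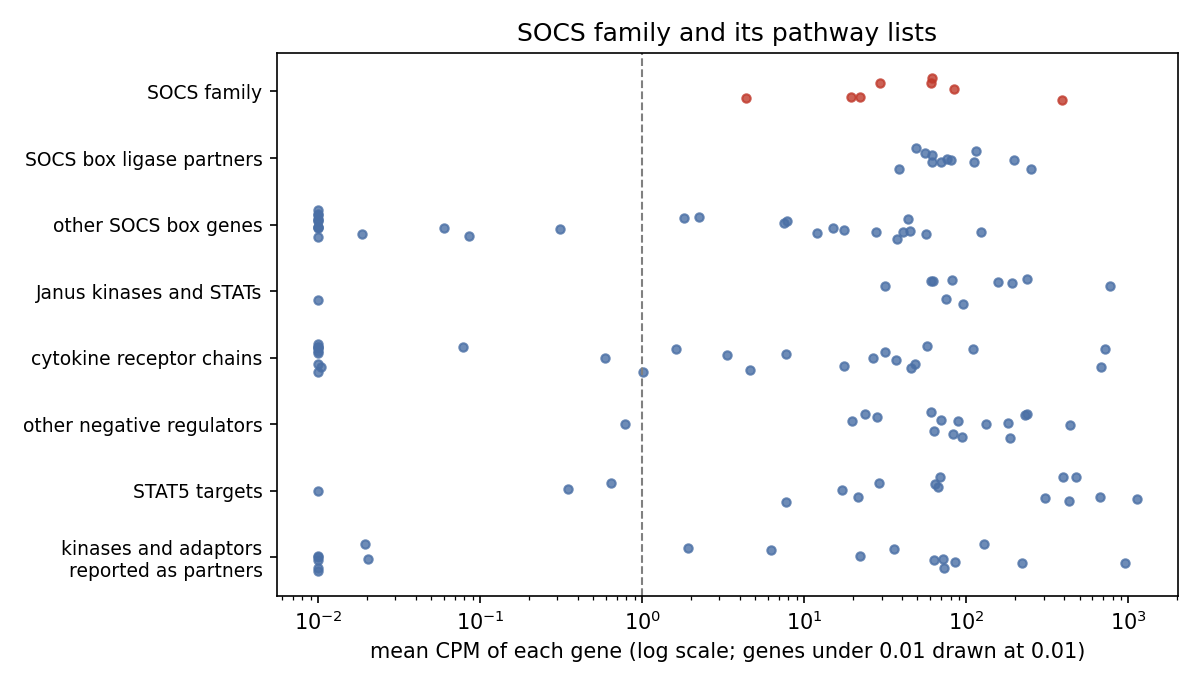
Mean CPM (log scale) of each gene of the SOCS family (red) and of the pathway lists (blue), genes under 0.01 CPM being drawn at 0.01, with the detection threshold of 1 CPM as a dashed line. Among detected genes, the family's median of 44.9 CPM lies between those of the other SOCS box genes, 22.7 CPM, and the ligase partners, 73.0 CPM.

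In gene structure the members differ in ways the choice by name did not use. The principal transcripts encode 257 residues for Cish, 212 for Socs1, 198 for Socs2, 225 for Socs3, 436 for Socs4, 536 for Socs5, 533 for Socs6 and 579 for Socs7. The coding sequence lies in 1 exon in Socs1, Socs3, Socs4, Socs5 and Socs6, in 2 in Socs2, in 3 in Cish and in 9 in Socs7. The pentamer ATTTA, the core of AU-rich elements that are known to shorten the life of an mRNA, occurred 17 times in the 5182 bases of the Socs4 3′ UTR, 3 times in the 1087 bases of Cish and 0 times in the 1993 bases of Socs1. Per kilobase this made 3.28 in Socs4, 2.76 in Cish, 2.71 in Socs3 and 0 in Socs1, beside a median of 1.49 over 17325 protein-coding genes with a 3′ UTR of at least 200 bases. The other densities were 2.49 in Socs6, 1.72 in Socs2, 1.54 in Socs5 and 0.965 in Socs7, so the family spanned both sides of that median. No RNA half-life was measured.

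Some members share sequence with other loci, so reads could be divided. In 50-base windows, the length of a read, 15.8% of those in the principal Cish transcript, 18.4% in Socs2, 11.7% in Socs6 and 0.308% in Socs4 also occurred in a transcript of another gene or its reverse complement, and 0 in Socs1, Socs3, Socs5 and Socs7. For Cish the main partners were Gm17041 and Gm17040, which overlap 479 and 261 of its exon bases on the opposite strand and held 0.0385 and 0.181 CPM. For Socs2 and Socs6 they were the processed pseudogenes Gm9847 and Gm9449, neither of which had a read. How the counting treated strand and reads with several matches is not given in the sources, so the levels of Cish, Socs2 and Socs6 are uncertain to that extent.

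The nearest protein-coding genes of 3 members, with levels in CPM that are not corrected for length, were as follows. Cish lies between Mapkapk3 at 64.0 CPM and Hemk1 at 89.5 CPM. Socs1 lies 2400 bases from the sperm chromatin gene Tnp2, at 0.0489 CPM, and on its other side from Clec16a at 72.6 CPM. Socs4 starts 74 bases from Wdhd1, which is transcribed from the opposite strand and held 64.5 CPM.

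The labelled line, which is often described as pro-B, was checked against markers. Of 6 markers of an IL-3-dependent line 4 were detected, namely Il3ra, Csf2rb, Ptprc and Spn. Kit was at or below 1 read per culture and Cd34 had no read. Beside this list and the marker lists that follow, 45.9% of protein-coding genes were detected. Of 11 early B lineage markers 2 were detected, Cd79b at 19.5 CPM and Cd79a at 1.75 CPM, and Ebf1 was among the 6 with no read. The summed level of that list was 20.1 to 22.2 CPM across cultures. Stromal and epithelial markers were detected in 0 of 9 cases and summed to between 0.945 and 1.22 CPM. Of 5 macrophage markers 4 were detected, summing to 124 to 128.6 CPM, mostly Cd68 at 88.3 CPM, and C1qa had no read. That share, 80%, was above the 66.7% of the IL-3 list, so the counts alone do not identify the line. The part of these marker levels in the SOCS values was not tested.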

How the data were processed

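Polyadenylated RNA of 3 Ba/F3 cultures was sequenced. Alignment to GRCm38 with HISAT2 and counting with the in-house program GenSum are given in the series' design text, and HISAT2 and GRCm38 also in the submitters' processing notes. Not given in the sources used here are versions, annotation release, strand setting and the treatment of reads with several matches. The deposited values are log2(reads per 10000000 + 1), and undoing the log gave whole reads for 100% of entries within 0.01 read. A read equals 0.0312, 0.0295 and 0.0269 CPM in cultures 1, 2 and 3.

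In 0 of 23001 rows with reads do identifier and symbol name the same gene. Cultures 1 and 2 were read by identifier and culture 3 by symbol and coordinates. The evidence is from the values: of 8737 genes with at least 10 CPM, 9 differed over 2-fold from culture 1 when culture 3 was matched by gene and 54 on the same row (1 for culture 2), and among the 200 highest genes 0 and 53 did. Pearson r across genes was 0.991 matched and 0.954 on the same row. The median absolute log2 difference was no smaller when matched (0.0765) than on the same row (0.0722); rows descend by the deposited average, with 1 exception. No source states the row order. Culture 3 was joined through GENCODE M21 by coordinates (54907 rows) or symbol (344 rows), which gave 55200 genes.

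Computed here with Python 3.11.15, numpy 2.4.6, scipy 1.17.1 and pandas 2.3.3: CPM; RPKM; a chi-square test of Poisson heterogeneity on recovered reads for genes averaging 10 or more reads, with Benjamini-Hochberg adjustment over all genes and a threshold of 0.05; and the same test with a common negative binomial dispersion of 0.00500. The code was tested on simulated data. Replicates are separate cultures, and p-values compare these libraries. Intervals are computed from the reads of each library alone, so they cover counting error only. Reads carry no molecular identifiers, so duplicate copies of a molecule are not accounted for. Promoter sequences are from RefSeq (GRCm38.p6), matched by symbol for 4 of 8 members.

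Members and lists were chosen with earlier results of these data known. Named are all members, in each pathway list the 3 highest detected and up to 3 undetected genes, and the 3 protein-coding genes nearest to Cish. Exceptions are stated, and 1 undetected gene that this rule names is not reported here. Alternatives covered scaling, dispersion, detection threshold, gene length, motif spacer and window, rows as deposited, and leaving out each culture.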

Additional observations from a re-analysis of the deposited data

How the results depend on the processing

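The number of members whose spread exceeded counting noise, 2 of 8 by the Poisson chi-square test, was 0 with the common dispersion, 4 with trimmed mean of M values scaling and 4 with median-of-ratios scaling, and 1 to 2 when each culture was left out. Both scalings added Socs3 (adjusted p = 0.0269 and 0.0381, chi-square test over all genes) and Socs6 (adjusted p = 0.0211 and 0.0212, chi-square test over all genes). Over all genes these scalings called 4509 and 4508. They moved the level of all genes by at most 1.22% in a culture. Over all genes, 4304 were called, 480 with the common dispersion and 1460 to 3900 when each culture was left out. In the order per length, 4 of 8 members kept their place with longest transcripts and 3 with principal transcripts, an alternative chosen after seeing the data. The count of 2 promoters with a STAT core was 0 with a spacer of 4 bases and 1 in the 250 bases before the start alone. Detection of members was 7 at 5 CPM, and of pathway genes 91 at 0.5 CPM and 82 at 5 CPM, against 88. Shares of all genes at these other thresholds are not given here, so these counts stand without a background. On the rows as deposited Socs1 lost its call and Socs5 gained one, with 3986 of all genes called; the mean of Socs5 was 63.4 CPM against 61.5, and the other 7 means moved by less than their SD, though culture 3 was 427.0 CPM against 371.0 for Cish and 3.85 against 5.35 for Socs1. Depth limits Socs1, with 126 to 199 reads. No paired analysis was possible because the cultures form 1 group.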
